A study of Rattus norvegicus with 12 samples.

Results

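Transcripts of peroxiredoxins and other antioxidant enzymes were compared between rat choroid plexus of the light and the dark phase. The gene set was PRDX1 to PRDX6, SOD1, GPX4, CAT and TXNRD1, chosen by name. A gene entered when the study's supplementary gene tables paired its symbol with an Ensembl identifier, which held for 9 of the 10 symbols and for 9 of the 32883 genes quantified. TXNRD1 had no pairing in the parts of these tables used here and was not analysed. CAT was paired only through the study's table of changed genes, drawn from the same rats, so its change is no independent test. The other 8 were paired through the table of all transcribed genes, which is ordered by level. Their values come from the same rats as well. The study had named PRDX1 as higher in the light phase and had listed PRDX6 as changed. The results for these genes are thus no independent test either.

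Choroid plexus from the lateral and the fourth ventricles was excised from 12 male Sprague-Dawley rats, 9 weeks old and under ketamine and xylazine anaesthesia. Of these, 6 were sampled at zeitgeber time (ZT) 8, which is 8 h after light onset, and 6 at ZT20, which is 8 h after light offset. Red lamplight was the only illumination used while sampling at ZT20. Each phase is thus represented by a single time point, and each library holds the whole tissue of 1 rat.

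Antioxidant enzymes remove superoxide and peroxides, which arise in respiration among other sources. Superoxide dismutases turn superoxide into hydrogen peroxide, and catalase, peroxiredoxins and glutathione peroxidases then reduce the peroxide. Most peroxiredoxins use a cysteine pair and are recycled by thioredoxin, whereas PRDX6 uses a lone catalytic cysteine and relies on glutathione. The choroid plexus epithelium is rich in mitochondria and secretes the cerebrospinal fluid, and oscillation of the peroxiredoxin redox state is a known daily rhythm in many cell types.

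Expression is given as TPM, the deposited measure of a transcript's share of its library, which is corrected for transcript length and allows genes to be ranked within a library. Read counts are not part of these values. From single-read steps in the deposited FPKM, another length-corrected unit, of rarely detected genes, depth relative to the mean library was estimated at 0.870 to 1.36 in the light phase and 0.907 to 1.09 in the dark phase. Transthyretin (TTR), the marker of the epithelium, took 25.4 to 30.4% of TPM in the light phase and 28.7 to 31.0% in the dark phase. All 8 epithelial markers were present, and 5 of them were called between the phases (PRLR, KL, OTX2 and CLIC6 higher in the dark phase, AQP1 higher in the light phase). The red cell transcript HBB lay between 1406 and 5535 TPM in the light phase, where replicate 2 was the highest and the next library had 1956 TPM, and between 839 and 2190 TPM in the dark phase. Summed levels of the paired markers of fibroblasts (2 of 6) were 136 to 216 TPM in the light and 146 to 228 TPM in the dark phase. The endothelial marker PLVAP (1 of 5 paired) had 58.5 to 124 TPM in the light and 56.7 to 96.8 TPM in the dark phase. PTPRC, the only paired gene of the macrophage list (1 of 6), is expressed by white blood cells in general. It had 1.93 to 2.97 TPM in the light and 1.27 to 2.14 TPM in the dark phase (called higher in the light phase, limma FDR = 0.0489). No paired marker was at 0 in all libraries, and none of the 3 neuronal markers was paired. The part of these cells in the results was not tested, and fewer cells of a type cannot be told apart from less RNA per cell in whole tissue.

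For the comparison of phases, TPM was scaled between libraries, transformed to log2(TPM + 0.5) and tested with limma across 12513 genes averaging 1 TPM or more. The false discovery rate (FDR) was adjusted over all of these genes, and negative log2 fold changes denote higher expression in the light phase. All 9 antioxidant genes passed the filter on level. At an FDR below 0.05, 3 of the 9 were called. PRDX1 and PRDX6 were higher in the light phase and CAT was higher in the dark phase. Over all genes, 17.8% were called, 8.33% higher in the light phase and 9.5% higher in the dark phase. Among the 1997 genes whose symbol came from the table of all genes, 23.7% were called, 14.5% higher in the light phase and 9.16% higher in the dark phase, and of the 8 antioxidant genes paired in that way 2 were called. In the scaled values, phases did not overlap in 1 of the 9 genes, PRDX1, and in 8.92% of all genes (3.92% higher in the light phase, 4.99% higher in the dark phase). In the table of all genes 12.4% did not overlap (7.36 and 5.06%). An unadjusted p below 0.05 was reached by 3 of the 9, by 30.8% of all tested genes and by 38.3% of the table of all genes. The median log2 fold change of the 9 genes, CAT included, was -0.0076. It was -0.0085 over all tested genes and -0.035 in the table of all genes.

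PRDX1 (ENSRNOG00000017194), a cytosolic peroxiredoxin of the cysteine-pair type, was the gene with the clearest difference. In the light phase its lowest, median and highest levels were 529, 555 and 609 TPM, and in the dark phase 413, 429 and 471 TPM. Every light-phase rat lay above every dark-phase rat. Its mean fell from 562 ± 32.97 TPM (SD, n = 6) in the light phase to 433 ± 19.9 TPM (SD, n = 6) in the dark phase, so that the light-phase level was 29.7% higher. Its log2 fold change was -0.39 (standard error 0.04, 95% interval -0.49 to -0.30, limma FDR = 9.46e-05). This call held under all 25 alternatives, with log2 fold changes from -0.41 to -0.36 and an FDR of at most 0.0174.

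**Figure D1:**
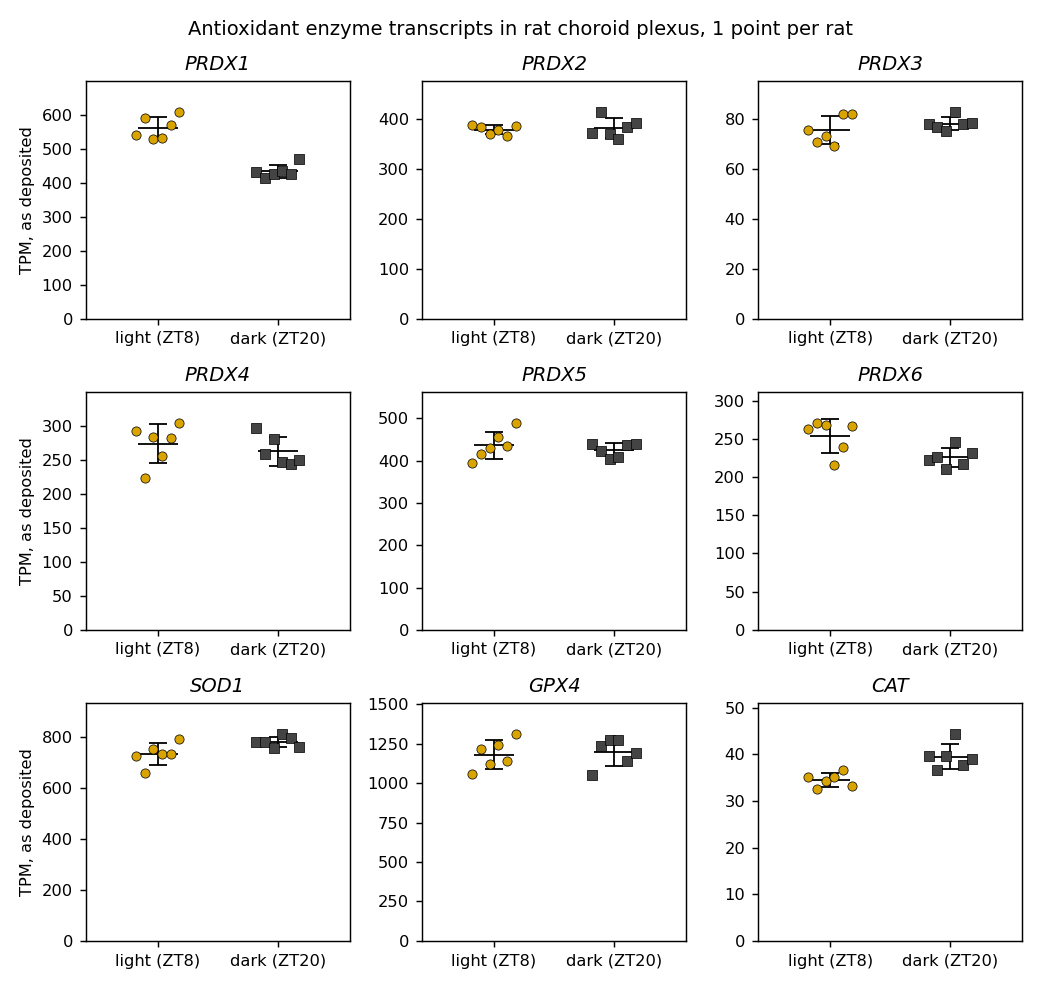
Expression of the 9 antioxidant genes in TPM as deposited (vertical axes, each from 0) for light-phase rats (ZT8, circles) and dark-phase rats (ZT20, squares), 1 point per rat, with mean and SD. Only in PRDX1 and CAT do the deposited values of the phases not overlap, with PRDX1 higher in the light phase (lowest 529 TPM, against a dark-phase maximum of 471 TPM) and CAT higher in the dark phase (lowest 36.7 TPM, against a light-phase maximum of 36.5 TPM).

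The bases before the PRDX1 start site are shown because PRDX1 is a classical target of NRF2, the transcription factor of the antioxidant response, and because it was the most firmly called gene of the set. The bases before the CAT start are shown beside it as those of the gene called in the opposite direction. Both are the 250 bases directly upstream of the RefSeq start on rat build GRCr8, 5′ to 3′ on the strand of the gene. PRDX1 lies at chr5:135383656-135383905 (plus strand) and CAT at chr3:110329527-110329776 (minus strand). Capitals mark the match to the core of the antioxidant response element, TGACNNNGC read on either strand.
PRDX1: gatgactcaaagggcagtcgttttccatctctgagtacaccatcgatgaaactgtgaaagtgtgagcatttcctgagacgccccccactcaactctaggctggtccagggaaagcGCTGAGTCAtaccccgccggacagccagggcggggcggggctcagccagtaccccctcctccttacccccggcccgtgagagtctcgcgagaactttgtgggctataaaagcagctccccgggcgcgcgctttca
CAT: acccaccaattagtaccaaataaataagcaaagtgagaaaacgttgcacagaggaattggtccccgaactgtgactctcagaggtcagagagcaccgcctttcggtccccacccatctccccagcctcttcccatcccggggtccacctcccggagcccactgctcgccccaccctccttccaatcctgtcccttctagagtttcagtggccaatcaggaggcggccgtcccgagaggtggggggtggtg

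In PRDX1 the match lies 135 to 127 bases before the start, on the strand opposite to the gene. RefSeq windows were found for 8 of the 9 genes, with none for PRDX6, and PRDX1 was the only one of the 8 with this core. Over all 33469 RefSeq windows of the same length, 10.1% hold it. The E-box CACGTG, the motif of CLOCK and BMAL1, was found in PRDX4 alone, which was not called, and in 5.59% of all windows. The D-box TTATGTAA or TTATGCAA, searched on both strands, was found in 0 of the 8 genes and in 1.6% of all windows. These matches describe letters in a window and are no measurement of binding.

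PRDX2 (ENSRNOG00000003520) is the closest relative of PRDX1 in location and mechanism, a cytosolic enzyme of the cysteine-pair type that is also abundant in red cells. It had 366, 381 and 387 TPM (lowest, median and highest) in the light phase and 359, 377 and 413 TPM in the dark phase. The phases overlapped almost entirely, with 378 ± 8.97 TPM against 381 ± 19.3 TPM (SD, n = 6 each). Its log2 fold change was -0.01 (limma FDR = 0.924), and the 95% interval ran from a change of -6.39% to one of 5.71% in the dark phase. Light-phase replicate 2, with the highest HBB, had 384 TPM of PRDX2 as deposited, inside the range of its phase. This is 1 library, and the part of blood in the PRDX2 values was not tested. The ratio of PRDX1 to PRDX2 within a library, which no scaling can change, was 1.396 to 1.581 in light-phase libraries, whereas dark-phase libraries had 0.998 to 1.21. It was thus higher in every light-phase rat, and no test was made of it.

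PRDX3 (ENSRNOG00000010958) is the mitochondrial member of the cysteine-pair type and had the lowest level of the 6 peroxiredoxins. Its lowest, median and highest levels were 69.1, 74.5 and 82.1 TPM in the light phase and 75.01, 77.9 and 82.7 TPM in the dark phase. All dark-phase rats lay above the light-phase median, but 3 of the light-phase rats reached into the dark-phase range. The log2 fold change was 0.03 (limma FDR = 0.699), with a 95% interval from a change of -5.24% to one of 10.6% in the dark phase.

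PRDX4 (ENSRNOG00000003763) is the peroxiredoxin of the endoplasmic reticulum. It had 224, 282 and 304 TPM (lowest, median and highest) in the light phase and 244, 254 and 296 TPM in the dark phase. It was the most variable gene of the set, with a coefficient of variation of 10.6% in the light and 8.06% in the dark phase, and the phases overlapped. Its log2 fold change was -0.07 (limma FDR = 0.580), with a 95% interval from a change of -15.6% to one of 7.17% in the dark phase. Light-phase replicate 2 held the lowest value, and without it the log2 fold change was -0.15 (limma FDR = 0.0835). Without light-phase replicate 6, which held the highest value, it was -0.04 (limma FDR = 0.810).

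PRDX5 (ENSRNOG00000021125), found in mitochondria, peroxisomes and cytosol, had 394, 432 and 489 TPM (lowest, median and highest) in the light phase. In the dark phase it had 405, 430 and 440 TPM, inside the light-phase range. The log2 fold change was -0.05 (limma FDR = 0.617), with a 95% interval from a change of -11.7% to one of 5.69% in the dark phase.

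PRDX6 (ENSRNOG00000002896), the member with the lone catalytic cysteine and a phospholipase activity, was called higher in the light phase. It had 215, 265 and 270 TPM (lowest, median and highest) in the light phase and 211, 225 and 246 TPM in the dark phase. Every dark-phase rat lay below the light-phase median, and 4 light-phase rats lay above every dark-phase rat, but the phases overlapped. The means were 254 ± 22.1 TPM and 226 ± 12.4 TPM (SD, n = 6 each), a light-phase excess of 12.5%. Its log2 fold change was -0.18 (standard error 0.05, 95% interval -0.30 to -0.07, limma FDR = 0.0277). This call was close to the threshold and was lost without light-phase replicate 1, 3 or 6 (FDR = 0.0513, 0.0554 and 0.0607) or dark-phase replicate 1, 3 or 5 (FDR = 0.0537, 0.0636 and 0.0579). It was also lost with TPM as deposited (FDR = 0.0726), with TPM rescaled without TTR and mitochondrial genes (FDR = 0.0735), with the replicate number as a block (FDR = 0.0838) and with the ratio of FPKM to TPM in the model (FDR = 0.222).

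**Figure D2:**
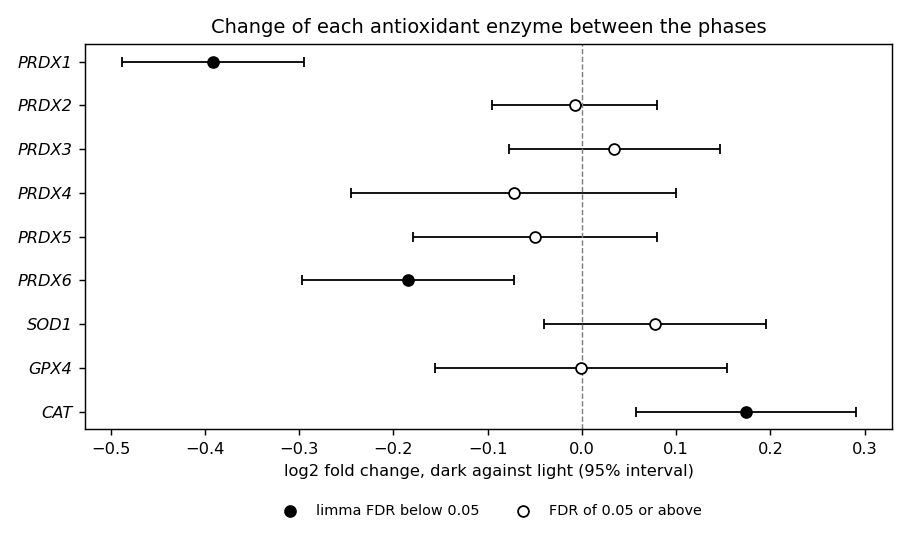
Log2 fold change of each antioxidant gene, dark against light phase (horizontal axis, positive is higher in the dark phase), with 95% intervals from limma. Filled points mark an FDR below 0.05, and PRDX1 at -0.39 stands farthest from 0, followed by PRDX6 at -0.18 and CAT at 0.17.

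The 6 peroxiredoxins together summed to 1906 to 2134 TPM in the light phase and 1766 to 1861 TPM in the dark phase. Every light-phase library lay above every dark-phase library in this sum, which includes the PRDX1 values above. PRDX1 made up 27.1 to 30.2% of the sum in the light phase and 22.8 to 25.3% in the dark phase. The share of PRDX2 was 18.03 to 19.9% in the light phase and 20.2 to 22.8% in the dark phase. PRDX3 had 3.61 to 4.16% and 4.203 to 4.65%. Shares add up to the whole, so a lower share of PRDX1 raises those of the others. Shares of PRDX4, PRDX5 and PRDX6 overlapped between the phases.

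**Figure D3:**
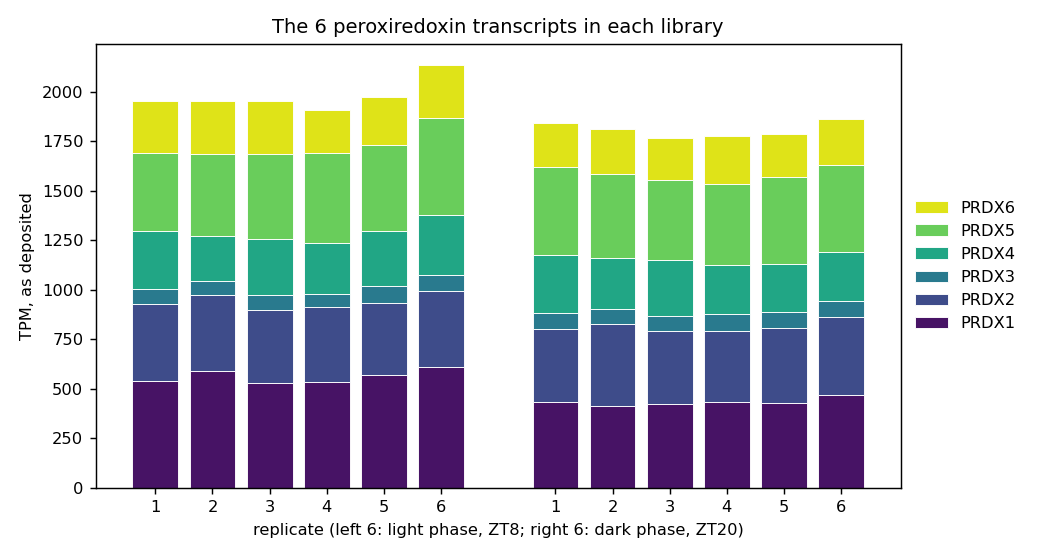
TPM of the 6 peroxiredoxin genes stacked for each of the 12 libraries (light-phase replicates on the left, dark-phase replicates on the right). Sums lie between 1906 and 2134 TPM in the light phase and between 1766 and 1861 TPM in the dark phase, and the PRDX1 layer at the base is thinner in the dark phase.

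SOD1 (ENSRNOG00000002115), the cytosolic copper and zinc superoxide dismutase, had 658, 733 and 791 TPM (lowest, median and highest) in the light phase and 759, 782 and 811 TPM in the dark phase. All dark-phase rats lay above the light-phase median, and light-phase replicate 6 alone reached into the dark-phase range. The means were 732 ± 43.7 TPM and 782 ± 20.3 TPM (SD, n = 6 each). The log2 fold change of 0.08 did not pass the test (limma FDR = 0.358), and its 95% interval ran from a change of -2.72% to one of 14.5% in the dark phase. Light-phase replicate 2 held the lowest value, and without it the log2 fold change was 0.03 (limma FDR = 0.660). With the ratio of FPKM to TPM in the model it was 0.24 (limma FDR = 0.0728).

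GPX4 (ENSRNOG00000013604), the selenoenzyme that reduces lipid hydroperoxides in membranes, was the most abundant gene of the set. It had 1057, 1179 and 1311 TPM (lowest, median and highest) in the light phase and 1052, 1215 and 1277 TPM in the dark phase. The ranges nearly coincided, and the log2 fold change was -0.0012 (limma FDR = 0.994). The 95% interval ran from a change of -10.3% to one of 11.2% in the dark phase.

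CAT (ENSRNOG00000008364) encodes the peroxisomal enzyme catalase and was the least abundant gene of the set. It had 32.6, 34.7 and 36.5 TPM (lowest, median and highest) in the light phase and 36.7, 39.3 and 44.3 TPM in the dark phase. In the deposited TPM every dark-phase rat lay above every light-phase rat, by a narrow margin, and after scaling the phases overlapped. The means were 34.5 ± 1.45 TPM and 39.5 ± 2.61 TPM (SD, n = 6 each), a dark-phase excess of 14.5%. Its log2 fold change was 0.17 (standard error 0.05, 95% interval 0.06 to 0.29, limma FDR = 0.0408). The call was lost without light-phase replicate 1, 2, 3 or 6 (FDR = 0.0657, 0.0793, 0.0671 and 0.0772) or dark-phase replicate 1, 3, 4 or 6 (FDR = 0.0668, 0.0719, 0.0719 and 0.0613). It was also lost without the filter on level (FDR = 0.0548) and without the variance trend (FDR = 0.0555). With the ratio of FPKM to TPM in the model, the log2 fold change of CAT was 0.32 (FDR = 0.0293). Light-phase replicate 2, which had the highest HBB and the lowest TTR share, had the lowest CAT, and the part of blood in the CAT result was not tested.

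**Figure D4:**
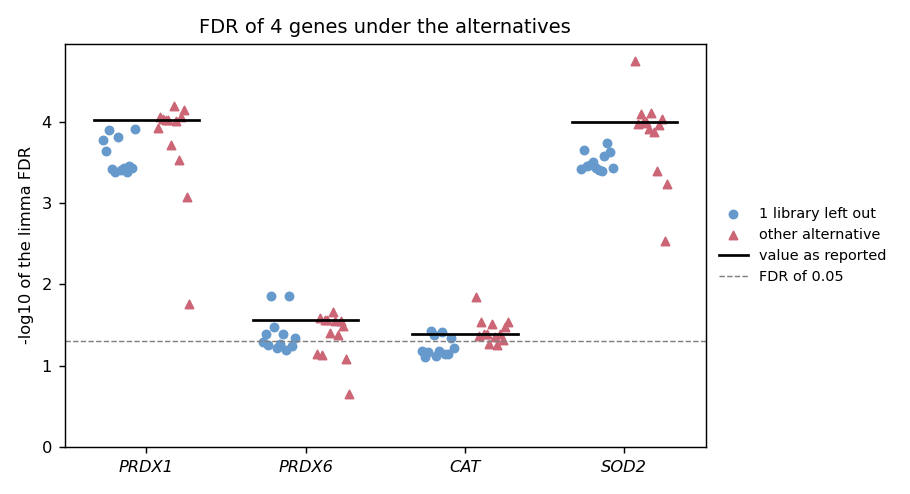
Size of the limma FDR as -log10 (vertical axis, higher is a smaller FDR) of PRDX1, PRDX6, CAT and the mitochondrial dismutase SOD2, as reported (bars), with 1 library left out (circles) and under the other alternatives (triangles). Points of PRDX1 and SOD2 all lie above the dashed line at an FDR of 0.05, whereas PRDX6 and CAT have points on both sides.

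In order of mean level over the 12 libraries, GPX4 (1189 TPM) was followed by SOD1 (757 TPM), PRDX1 (498 TPM), PRDX5 (431 TPM), PRDX2 (380 TPM), PRDX4 (268 TPM), PRDX6 (240 TPM), PRDX3 (76.7 TPM) and CAT (37.0 TPM). Ranges overlapped between the neighbours PRDX1 and PRDX5, PRDX5 and PRDX2, and PRDX4 and PRDX6, and between no other neighbours. PRDX1 exceeded PRDX5 in 9 of the 12 libraries, PRDX5 exceeded PRDX2 in 12 of 12, and PRDX4 exceeded PRDX6 in 11 of 12. The coefficient of variation between rats over the 9 genes had a light-phase median of 7.34% and a dark-phase median of 5.07%. Over the 1997 genes of the table of all genes it was 6.41 and 5.42%. Light-phase replicate 6 held the highest light-phase value of 5 genes (PRDX1, PRDX4, PRDX5, SOD1 and GPX4). Dark-phase replicate 4 held the highest dark-phase value of 4 genes (PRDX3, PRDX6, SOD1 and CAT), and dark-phase replicate 3 the lowest of 4 (PRDX3, PRDX5, PRDX6 and SOD1).

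RefSeq on GRCr8 lists pseudogene symbols for several of these genes, 7 for PRDX1, 4 for GPX4, 3 for PRDX6 and 1 for PRDX3. How RSEM divided reads between these genes and their copies was not analysed here, and their values are uncertain to that extent. No such symbol is listed for PRDX2, PRDX4, PRDX5, SOD1 and CAT.

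The genes around these enzymes were examined as 7 lists with 93 genes in all, of which 40 had a symbol pairing and were tested. For 33 of them the pairing came from the table of all genes, and in these limma called 1 higher in the dark phase (SOD2) and 3 higher in the light phase (GLRX, GLRX3 and GSTO1), where calls among all genes of that table made up 9.16% for the dark-phase direction, against 14.5% for the opposite one. The other 7 were paired only because the study had listed them as changed, and 3 of them were called (SESN3 higher in the dark phase, SESN1 and GSR higher in the light phase), which is no independent evidence. The median log2 fold change was -0.06 in the 33 genes, against -0.035 in the 1997 genes of that table.

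Among the other superoxide and peroxide enzymes, SOD2, the manganese dismutase of the mitochondrial matrix, was higher in the dark phase. It had 133, 136 and 140 TPM (lowest, median and highest) in the light phase and 167, 172 and 184 TPM in the dark phase. Every dark-phase rat lay above every light-phase rat. The log2 fold change was 0.32 (standard error 0.04, limma FDR = 0.000102), and the call held under all 25 alternatives. The ratio of SOD2 to SOD1 within a library was 0.171 to 0.205 in the light phase and 0.209 to 0.228 in the dark phase. The other 5 genes of this list were not called. GPX1, the cytosolic glutathione peroxidase, had -0.08 on the log2 scale (FDR = 0.463 by limma) and the secreted dismutase SOD3 by 0.04 (FDR = 0.815).

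In the thioredoxin and glutaredoxin system, 10 of 16 genes were tested. GLRX, the cytosolic glutaredoxin that reduces glutathionylated proteins, had 52.9, 57.0 and 59.3 TPM (lowest, median and highest) in the light phase and 41.5, 42.9 and 45.3 TPM in the dark phase. The phases did not overlap, and its log2 fold change was -0.40 (limma FDR = 0.000124), a call held under all 25 alternatives, with log2 fold changes from -0.44 to -0.26. The smallest change and the highest FDR (0.0323) came with the ratio of FPKM to TPM in the model. GLRX3, which takes part in iron-sulfur protein assembly, fell in the dark phase by 0.15 on the log2 scale (limma FDR = 0.0378). That call was lost under 11 of the 25 alternatives. TXN1, the cytosolic thioredoxin that recycles PRDX1 and PRDX2, had 208 ± 35.1 TPM and 207 ± 19.2 TPM (SD, n = 6 each). It was not called (log2 fold change -0.01, limma FDR = 0.944). TXN2, its mitochondrial counterpart, had -0.06 (limma FDR = 0.499). Of the sestrins, which were paired through the table of changed genes, SESN1 fell in the dark phase by 0.23 on the log2 scale (limma FDR = 0.0243, lost under 7 of the 25 alternatives). SESN3 rose by 0.28 (limma FDR = 0.00547, lost under 1).

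In the glutathione list, 9 of 17 genes were tested. GSTO1, a glutathione transferase of the omega class, had 70.4, 80.7 and 95.5 TPM (lowest, median and highest) in the light phase and 58.8, 65.0 and 71.1 TPM in the dark phase. The deposited values overlapped and the scaled values did not. Its log2 fold change was -0.36 (limma FDR = 0.00191), and the call was lost only when the ratio of FPKM to TPM entered the model (FDR = 0.0718). GSR, the reductase that regenerates glutathione, had a log2 fold change of -0.16 (limma FDR = 0.0259), a call lost under 8 of the 25 alternatives. The transferases GSTA1 and GSTA4, the most abundant genes of this list, were not called (log2 fold changes 0.12 and -0.21, limma FDR = 0.307 and 0.237).

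No gene was called among the 5 tested of NADPH supply, the 4 of the NRF2 list, the 6 selenoproteins and the 2 peroxisomal genes. Of these 17 entries, 3 had an unadjusted p below 0.05 in limma, where 30.8% of all tested genes and 38.3% of the table of all genes had one. These were IDH2 (log2 fold change -0.14, limma FDR = 0.0809), FTL1 (0.19, limma FDR = 0.153) and GCLM (0.15, limma FDR = 0.118), of which GCLM was paired only through a table of changed genes. FTH1, the ferritin heavy chain and the most abundant gene of the NRF2 list, had a log2 fold change of -0.0060 (limma FDR = 0.951), SQSTM1 -0.02 (limma FDR = 0.844), TKT -0.24 (limma FDR = 0.275) and SELENOF -0.09 (limma FDR = 0.282). PEX2, a peroxisome biogenesis factor, had -0.05 (limma FDR = 0.536). NFE2L2 (NRF2), KEAP1, NQO1 and HMOX1 had no symbol pairing and were not analysed.

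**Figure D5:**
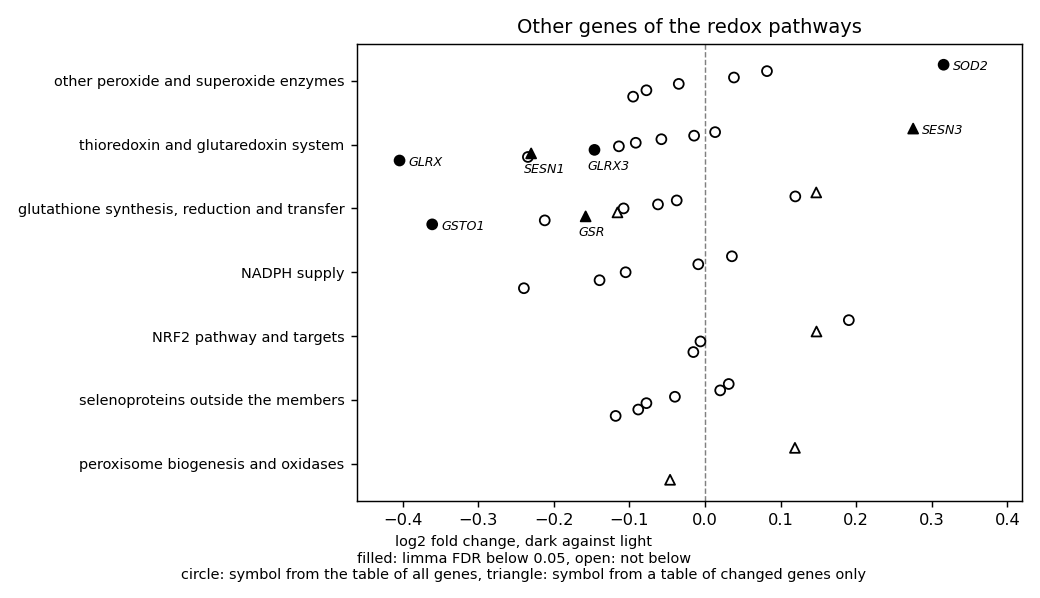
Log2 fold change, dark against light phase (horizontal axis), of the tested genes of 7 redox lists (rows, a gene may stand in several), with filled symbols for an FDR below 0.05. Circles are genes named through the table of all genes and triangles those named through a table of changed genes only, and SOD2 at 0.32 and GLRX at -0.40 mark the extremes.

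The genes whose profile over the 12 libraries was most like that of PRDX1 were sought among 3070 tested genes with a symbol and a mean of at least 10 TPM, by the root-mean-square difference of log2 values centred on each gene. FLOT2, a membrane raft protein, came closest at 0.07, followed by KRT8, DIABLO, PSMB6 and PSMB4 at 0.08, where the median over all these genes was 0.23. KRT8 is an epithelial keratin, DIABLO a mitochondrial protein released in apoptosis, and PSMB6 and PSMB4 are proteasome subunits. Their log2 fold changes ran from -0.40 (FLOT2) to -0.27 (PSMB4), a direction that the choice by likeness to PRDX1 fixes. For CAT the closest were GTF3C1, CANX, SERP1, VPS37A and TGOLN2 at 0.07, against a median of 0.16. FLOT2, GTF3C1 and VPS37A were named only through a table of changed genes.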

How the data were processed

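Choroid plexus RNA of 12 rats, 6 per phase, was sequenced with paired-end reads. The authors aligned reads to Rnor_6.0 with STAR 2.7.9a and deposited TPM from RSEM 1.3.3. The deposited FPKM values, made by the authors as well, served for relative depth (135 genes) and for alternatives. Rats are the replicates.

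Libraries were scaled with a trimmed mean of ratios (30% of ratios and 5% of levels trimmed at each end). Values were log2(TPM + 0.5), genes needed a mean of 1 TPM, and phase was the only term in limma 3.58.1 (R 4.3.3) with a variance trend and Benjamini-Hochberg adjustment. DESeq2, used by the study on counts, needs counts and was not used. The script was tested on simulated data with known changes, 50 genes of each size. Changes of 0.3 on the log2 scale were called in 36%, of 0.5 in 74%, of 1 in 90% and of 2 in 98%. In the same data 9 unchanged genes were called. That run held 12513 genes with 50 changed at each size, whereas 2231 of 12513 were called between the phases. Whether its rates hold for the comparison of phases was not tested. PRDX6 and CAT were called here at log2 fold changes of -0.18 and 0.17. A gene not called here may still have changed by a small amount.

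Members, lists and tests were chosen with earlier results of these data known. Symbols came from the study's supplementary gene tables (3700 genes), of which 2 were held in part. Named were all members, the called genes and the 2 most abundant of each list, and the 5 profiles closest to PRDX1 and CAT, the called members with the extreme fold changes. GCLM and FTL1 were named after their values were seen. Same-numbered libraries of the phases were checked for pairing (correlations of deviations from -0.107 to 0.047) and were not treated as pairs. Promoter windows and pseudogene symbols are from RefSeq on GRCr8, matched by symbol. Some genes of the marker and pathway lists are not reported here.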

Additional observations from a re-analysis of the deposited data

Results flagged for a closer look

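Dixon's test at the 95% level was used to find single rats standing apart from the other rats of a phase. In 32 groups (the 9 antioxidant genes and the 7 called pathway genes in each phase), 3 rats were found, where 1 in 20 groups (1.6) would be by chance. Dark-phase replicate 6 had 471.04 TPM of PRDX1, with the next dark-phase rat at 433.9 TPM, and lay on the side of the light phase. Dark-phase replicate 4 had 184.45 TPM of SOD2 (next 172.4 TPM), away from the light phase. Dark-phase replicate 1 had 18.83 TPM of SESN1 (next 16.06 TPM), inside the light-phase range.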

How the results depend on the processing

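Each result was recomputed under 25 alternatives, of which 12 left out 1 library each. Of the 550 recomputed values, 471 kept their side of the threshold or stayed within 1.5 times the count. No called gene changed direction under any alternative. The fold changes of PRDX2, PRDX3, PRDX4, PRDX5 and GPX4, which were not called, changed sign in some settings. PRDX1, SOD2 and GLRX were called under all 25 alternatives, and PRDX2, PRDX3, PRDX4, PRDX5, SOD1 and GPX4 under none. The log2 fold change of PRDX6 lost its call with TPM as deposited (-0.17), with TPM rescaled without TTR and mitochondrial genes (-0.15), with the replicate block (-0.18) and with the ratio of FPKM to TPM as covariate (-0.21), and lay between -0.21 and -0.16 with 1 library left out. Under these 4 settings 1 antioxidant gene was called higher in the light phase. CAT lost its call without the filter (0.17, 0 genes called higher in the dark phase) and without the variance trend (0.17, 0 genes), and lay between 0.14 and 0.20 with 1 library left out. With 1 library left out, 0 to 1 antioxidant genes were called higher in the dark and 1 to 2 in the light phase. Of the pathway genes, 5 were called higher in the light phase, against 2 with TPM rescaled without TTR and mitochondrial genes, 3 with the replicate block, 1 with the covariate and 3 to 7 with 1 library left out. Higher in the dark phase were 2, against 1 with the covariate. With the covariate, 212 genes were called higher in the dark and 129 in the light phase, against 1189 and 1042. It also moved the log2 fold changes of CAT to 0.32, SOD1 to 0.24, PRDX4 to 0.01 and PRDX5 to 0.08. GPX4 moved from -0.0012 to 0.16 (limma FDR = 0.417) and PRDX3 from 0.03 to 0.16 (limma FDR = 0.255). Among the pathway genes, SOD2 moved to 0.41, GLRX to -0.26, GLRX3 to -0.085 and GSR to -0.09. PRDX5, not called, lay between -0.08 and -0.01 with 1 library left out. The ratio of FPKM to TPM was 0.953 to 0.987 in the light and 0.934 to 0.960 in the dark phase (r with phase -0.775). It shares most of its variation with phase, so its part cannot be told apart from that of phase. What the ratio reflects was not tested, and neither was the cause of the losses, with the covariate or without it. Same-numbered libraries of the phases showed little correlation of their deviations, and the labels do not state whether they were handled as pairs. The number of reads behind a value is not known.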
